A study of Mus musculus with 93 samples.

Results

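The 10 genes described here are transcription factors of the primitive streak and of the mesoderm that has just left it: T, Eomes, Mesp1, Mesp2, Mixl1, Gsc, Tbx6, Msgn1, Evx1 and Cdx2. They are a list given by name, and all 10 were among the 24514 genes of the count table. The study sorted mouse cardiac progenitors that carried Hcn4-GFP, a reporter of the first heart field, and a Tbx1-Cre; Ai9 label, by which cells that have expressed Tbx1 and their progeny become permanently red (RFP) as a mark of the second heart field lineage. All 4 groups carried these 3 alleles: GFP+ cells of embryos (n = 5 libraries), RFP+ cells of embryos (n = 4), GFP+ cells of spheroids (n = 38) and RFP+ cells of spheroids (n = 46). The spheroids were 3-dimensional aggregates of embryonic stem cells derived from these mice, treated with Activin A and Bmp4 and sorted at day 5.5, while the embryo samples are titled day 8.5 while their protocol gives E7.75. Each library came from 1 well of 10 sorted cells, so that a lower level could be fewer positive cells or less RNA per cell, which cannot be told apart. Wells are not tied to embryos or to separate differentiations, so p-values measure the spread among wells, which may be technical.

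In the gastrulating mouse embryo, Nodal, Bmp and canonical Wnt signals induce the streak, and cells passing through it switch on T-box factors such as T and Eomes before they move out as mesoderm or endoderm. Mesp1 then marks the earliest cardiovascular progenitors, while Tbx6 and Msgn1 act in presomitic mesoderm, which forms somites. These factors are transient: a cell of the heart field is normally descended from cells that used the early ones, such as Mesp1, and has since switched those off.

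Total counts were between 712732 and 2525460 reads in embryo GFP, between 1246546 and 1479957 in embryo RFP, between 445071 and 5658882 in spheroid RFP and between 6288 and 4371849 in spheroid GFP. The library of 6288 reads, well C9 of spheroid GFP, stood apart from the next smallest of its group at 828193 reads, and it held no read of any of the 10 factors. Spheroid RFP filled plate columns 1 to 6 and spheroid GFP columns 7 to 11, so population and plate position cannot be told apart. The embryo libraries were in column 12 and in wells G11 and H11, so source and plate position cannot be told apart either. In columns 3 and 4 of spheroid RFP, 7 pairs of side-by-side wells differed by a chi-square of 1.37 to 2.39 per gene, against 4.23 to 8.20 in 15 other neighbouring pairs, where 1 is sampling noise. They were kept as separate libraries, and results that change when each pair is summed are given with that value. The labels were checked against their own genes: Hcn4 averaged 14.9 CPM (reads scaled by library size, as parts of 1000000) in embryo GFP and 0.358 in embryo RFP, and 7.36 in spheroid GFP and 0.445 in spheroid RFP. Tbx1 was at 0 reads in embryo GFP and was detected in 3 of 4 embryo RFP, 2 of 38 spheroid GFP and 41 of 46 spheroid RFP libraries.

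Sequence upstream of the gene start is shown for T and Msgn1, the factor with the highest level and the factor with the widest gap between the spheroid populations, because some streak genes are classic Wnt targets. The sequences are RefSeq's on build GRCm38.p6, read 5′ to 3′ on the strand of the gene, and capitals mark TCAAAG or its reverse complement CTTTGA, the core letters bound by TCF/LEF, the nuclear effectors of Wnt. T lies at chr17:8434423-8442496 on the plus strand and Msgn1 at chr12:11208360-11208972 on the minus strand in GENCODE M21. The other factors lie at chr1:180693043-180697034 (Mixl1, minus), chr5:147300805-147307270 (Cdx2, minus), chr6:52313498-52318378 (Evx1, plus), chr7:79792241-79793788 (Mesp1, minus), chr7:79810727-79813439 (Mesp2, plus), chr7:126781483-126785560 (Tbx6, plus), chr9:118478212-118486132 (Eomes, plus) and chr12:104471209-104473330 (Gsc, minus). The stretches are chr17:8434173-8434422 for T and chr12:11208973-11209198 for Msgn1.
T: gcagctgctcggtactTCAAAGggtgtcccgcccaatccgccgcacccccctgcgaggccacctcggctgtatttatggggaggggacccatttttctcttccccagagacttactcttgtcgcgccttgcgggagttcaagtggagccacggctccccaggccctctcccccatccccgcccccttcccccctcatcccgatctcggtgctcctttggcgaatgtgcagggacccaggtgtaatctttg
Msgn1: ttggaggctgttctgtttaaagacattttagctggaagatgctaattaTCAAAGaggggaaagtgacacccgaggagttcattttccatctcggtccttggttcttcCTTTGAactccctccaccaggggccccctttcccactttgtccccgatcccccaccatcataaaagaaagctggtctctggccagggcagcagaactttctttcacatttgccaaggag
The core occurred in 3 of the 9 factors in the promoter table (T, Mesp1 and Msgn1) and in 16.0% of all 32851 promoters of the same length, on either strand. The windows searched began 250 bases before the start given in that table and ran a little past it. They are longer than the stretches printed. The T-box motif CACACCT or AGGTGTG occurred in Evx1, Mesp1 and Mesp2 and in 5.84% of all promoters. In Mesp1 and Mesp2 it lay past that start, at positions 7 and 29. A match is a description of the letters and not of binding.

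In the embryo libraries the streak programme was at or near 0. All 10 factors were at 0 reads in each of the 5 embryo GFP libraries, together 7399884 reads, for which 3 reads over the group correspond to 0.421 CPM. In embryo RFP, T had 1 read (0.716 CPM) in 1 of 4 libraries, Mixl1 had 2 reads (1.46 CPM) in another, and the other 8 factors were at 0, with 0.558 CPM as the level of 3 reads over the group. The embryo GFP libraries also detected fewer genes, 6189 to 8302 against 10263 to 13052 in embryo RFP and 11434 to 13880 in spheroid RFP, and the part of this in the zeros and in the folds against them was not tested. For a gene at 0 in every library, the Wilson interval of the share of libraries reached 43.4% in embryo GFP and 49.0% in embryo RFP, so a factor present in a minority of wells could have been missed at this sample size. Intervals and floors cover counting error only, since the reads carry no molecular identifiers. None of the 10 passed the filter on low counts for edgeR's quasi-likelihood test of embryo RFP against embryo GFP, in which 10.1% of 8503 genes were called at an adjusted p under 0.1 and 6.21% were called higher in RFP. Without the filter, T and Mixl1 had adjusted p of 0.446 and 0.338 in edgeR, and unadjusted p of 0.887 and 0.719 in DESeq2, so that 0 factors were called and 0 had an unadjusted p under 0.05. With reads in a single library, a permutation test of either factor says nothing about the groups, and none is given. Summed CPM of 9 cardiomyocyte markers was 17781 to 51543 in embryo GFP and 1178 to 2251 in embryo RFP. The same sum was 0 to 1255 in spheroid GFP (median 53.1), with well C9 included, and 13.9 to 139 in spheroid RFP (median 58.4). Of 4 of these markers measured between the spheroid populations, 3 were called lower in RFP and 0 higher (edgeR). Over all genes tested, 40.1% were called lower and 37.8% higher.

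**Figure D1:**
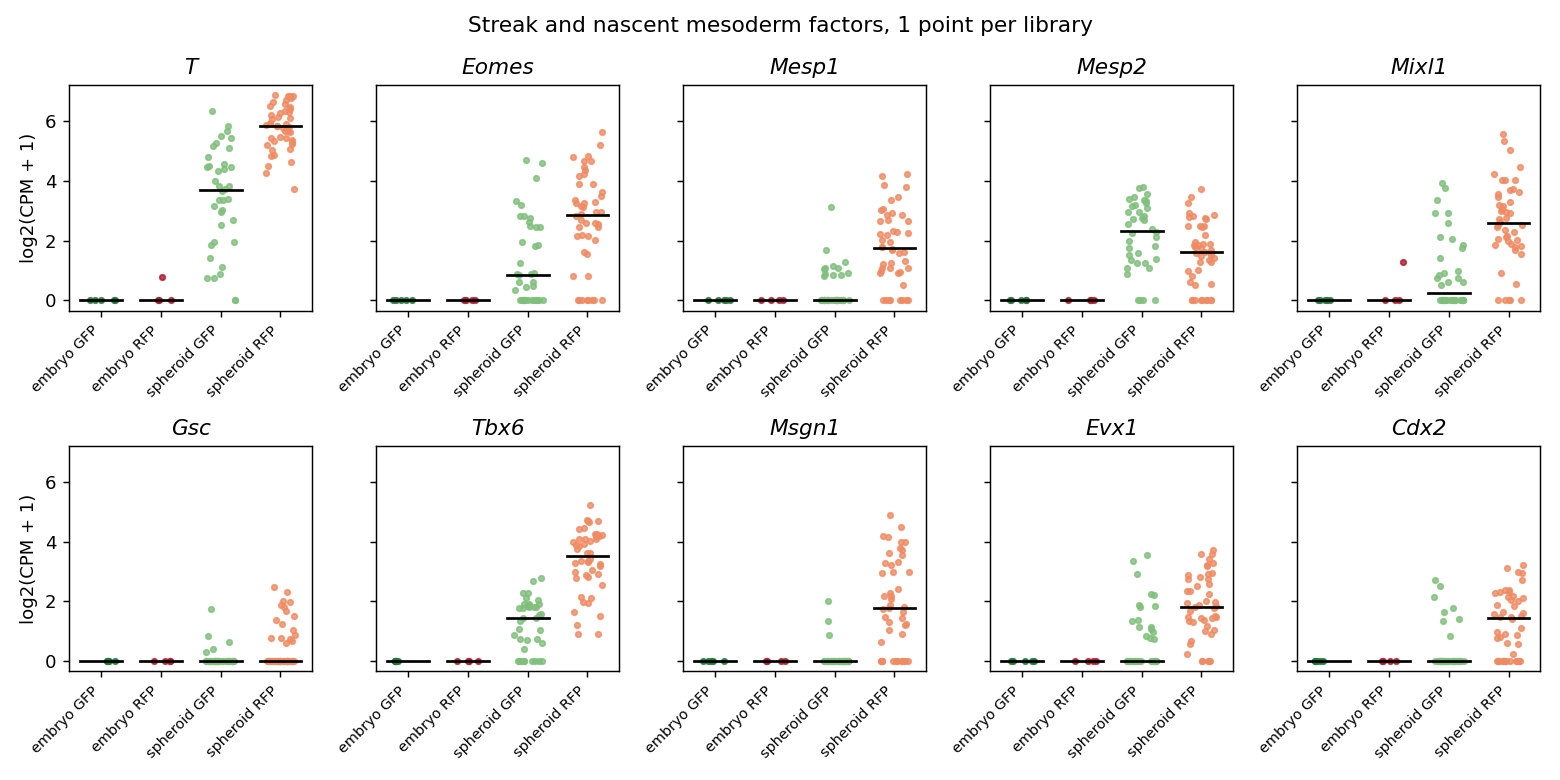
Level of each factor in each library as log2(CPM + 1), with 1 panel per gene, 1 point per library and a line at the group median. Embryo libraries lie at or near 0 in every panel, and spheroid RFP lies above spheroid GFP for 9 of the 10 factors by mean, with Mesp2 the exception.

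In the spheroids all 10 factors had reads in both populations, down to 9 reads of Msgn1 and 12 of Gsc over the 38 GFP libraries. Of the 10, 9 had a higher mean in RFP+ than in GFP+ cells. T, the Brachyury factor of streak and axial mesoderm, held the highest level in both, in CPM and per length. It ranged from 0 to 80.4 CPM with a median of 11.9 in spheroid GFP and from 12.3 to 116 with a median of 55.7 in spheroid RFP. Every one of the 46 RFP libraries was above the GFP median, 1 of 38 GFP libraries was above the RFP median, and 19 GFP libraries were below the lowest RFP library. T rose by 1.68 on the log2 scale (SE 0.24, adjusted p = 6.0e-10, edgeR). Tbx6, the presomitic T-box factor, ranged from 0 to 5.90 CPM (median 1.72) in GFP and from 0.869 to 35.9 (median 10.4) in RFP, and no GFP library was above the RFP median. It rose by 2.61 (SE 0.27, adjusted p = 4.3e-15, edgeR). These 2 were the factors that passed the filter, each through its level in RFP. Both were called, where 77.9% of 9940 genes were called and 37.8% were called higher in RFP, so that being called is not particular to them. With the wells of columns 3 and 4 summed, Tbx6 no longer passed the filter and 1 factor, T, was called.

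The other 8 factors were too low for that filter. Fitted without it, all 10 were called by edgeR, 9 higher in RFP, where 60.1% of 21827 genes were called and 24.7% were called higher in RFP. DESeq2 also called 10, where 10737 of 16322 genes were called. Msgn1, a presomitic bHLH factor, was separated most: it had at least 1 read in 3 of 38 GFP libraries, with a highest value of 3.06 CPM, and in 34 of 46 RFP libraries, with a median of 2.46 and a highest value of 28.9 CPM. Its log2 difference was 4.72 (SE 0.53, adjusted p = 3.8e-13, edgeR without the filter). Mesp1, the factor of the first cardiovascular mesoderm, ranged from 0 to 7.77 CPM (median 0) in GFP and from 0 to 17.7 (median 2.36) in RFP. The log2 difference of Mesp1 was 2.83 (SE 0.47, adjusted p = 1.2e-07, edgeR without the filter), and 1 of 38 GFP libraries was above the RFP median.

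Mixl1, a homeobox factor of streak and endoderm, ranged from 0 to 14.3 CPM (median 0.211) in GFP and from 0 to 45.9 (median 4.96) in RFP. Its log2 difference was 2.03 (SE 0.42, adjusted p = 2.1e-05, edgeR without the filter). Eomes, the T-box factor of anterior streak, cardiac mesoderm and definitive endoderm, ranged from 0 to 24.7 CPM (median 0.813) in GFP and from 0 to 48.2 (median 6.23) in RFP, and its groups overlapped widely. Eomes overlaps the antisense gene Gm33460, which shared 2.03% of its stretches of 36 bases. The log2 difference of Eomes was 1.43 (SE 0.42, adjusted p = 0.0023, edgeR without the filter). Gsc, the organizer homeobox factor, was the lowest of the 10 in CPM and per length, at a mean of 0.111 CPM in GFP and 0.690 in RFP. Its log2 difference of 1.93 had an adjusted p of 5.9e-04 in edgeR without the filter and 0.067 in DESeq2.

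Of the posterior factors, Evx1, a homeobox factor of the posterior streak, ranged from 0 to 10.8 CPM (median 0) in GFP and from 0 to 12.2 (median 2.55) in RFP. Evx1 differed by 1.28 (SE 0.43, adjusted p = 0.0080, edgeR without the filter). The gene shares 1335 bases with the antisense gene Evx1os, which shared 1.39% of the stretches of 36 bases of Evx1. The strand setting of the counting is not given in the sources used here, so reads in the shared bases cannot be told apart. Evx1os averaged 4.03 CPM in spheroid GFP and 11.5 in spheroid RFP, and was at 0 in every embryo library. Cdx2, the caudal homeobox factor of the posterior embryo, ranged from 0 to 5.51 CPM (median 0) in GFP and from 0 to 8.23 (median 1.72) in RFP. Cdx2 differed by 1.75 (SE 0.50, adjusted p = 0.0018, edgeR without the filter).

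Mesp2, the segmentation factor of anterior presomitic mesoderm and the paralog of Mesp1, went the other way. It ranged from 0 to 12.7 CPM (median 4.03) in GFP and from 0 to 12.1 (median 2.06) in RFP, and 25 of 38 GFP libraries were above the RFP median. Mesp2 fell by 0.76 on the log2 scale from GFP to RFP (SE 0.32, adjusted p = 0.039, edgeR without the filter), and by 0.85 in DESeq2 (adjusted p = 0.012). Mesp1 and Mesp2 lie 16939 bases apart on chromosome 7 and their transcripts shared 7 stretches of 36 bases, 0.565% of those of Mesp1. The two-sided permutation test of log2 CPM, with 100000 resamples, gave p = 0.011 for Mesp2, 0.0027 for Gsc and 2.8e-04 for Eomes, and at most 3e-05 for the other 7, of which 5 were at 1e-05, the smallest it can give. These are 10 of 32 such tests over the 4 comparisons, unadjusted.

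**Figure D2:**
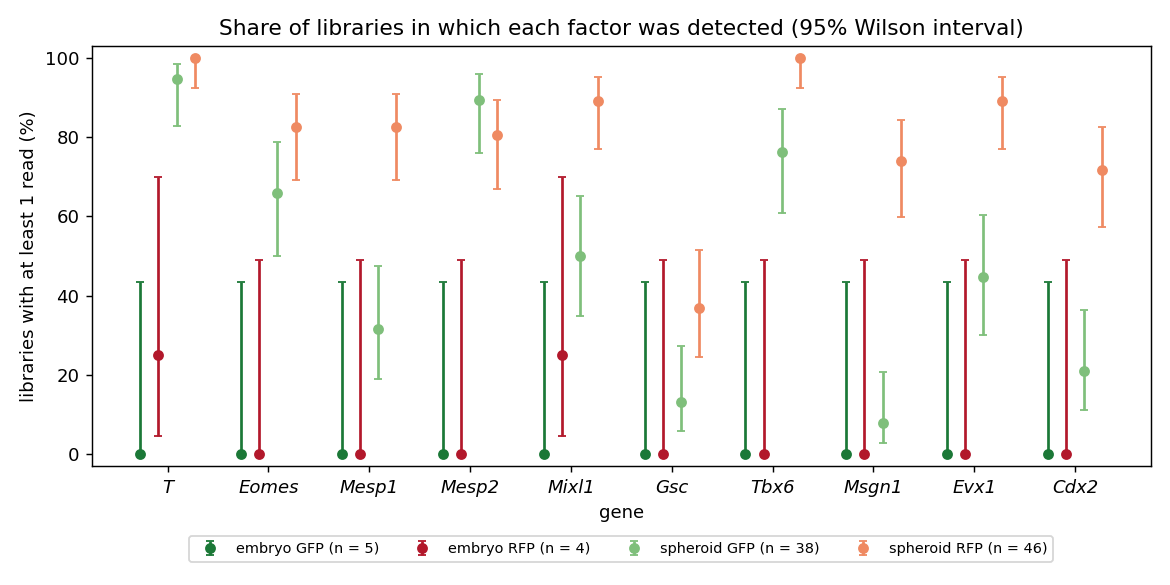
Share of libraries with at least 1 read of each factor, with 95% Wilson intervals, by group. Msgn1 was detected in 7.89% of spheroid GFP and 73.9% of spheroid RFP libraries, and no factor was detected in embryo GFP.

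Detection, meaning at least 1 read in a library, was compared as a separate measure. Fisher's exact test called 6 factors at an adjusted p under 0.1, all more often detected in RFP: Msgn1 (3 of 38 against 34 of 46), Mesp1 (12 against 38), Cdx2 (8 against 33), Evx1 (17 against 41), Mixl1 (19 against 41) and Tbx6 (29 against 46). In that test 11.2% of 21827 genes were called and 2.49% were called more often in RFP. T (36 against 46), Eomes (25 against 38), Mesp2 (34 against 37) and Gsc (5 against 17) were not called. With detection set at 3 reads, 9 factors were called, where 2572 of 18906 genes were called. Eomes (adjusted p = 0.037, Fisher's exact test) and Gsc (0.077) were among the 9. Mesp2 was then more often detected in GFP (31 of 38 against 24 of 46, adjusted p = 0.051). With every library thinned to 400000 reads, which leaves out well C9, Evx1 lost its call (adjusted p = 0.40) and T gained one (adjusted p = 0.029). A library of spheroid RFP held 5 to 10 of the factors, with a median of 8, and 4 libraries held all 10. A library of spheroid GFP held 0 to 8, with a median of 5, and the library with 0 was the shallow well C9.

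Levels between factors were compared per length, as CPM per kilobase of exon. In spheroid RFP the order was led by T at 26.3 ± 12.2 (SD, n = 46), Msgn1 at 8.79 ± 10.9, Tbx6 at 6.56 ± 4.37 and Mixl1 at 3.60 ± 4.24. In spheroid GFP it was led by T at 7.60 ± 7.93 (SD, n = 38), Mesp2 at 2.48 ± 1.92 and Tbx6 at 0.967 ± 0.854. Below T, neighbours in either order differed by less than the larger of their SDs. Msgn1 stood second in RFP and ninth in GFP, and Mesp2 second in GFP and seventh in RFP.

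**Figure D3:**
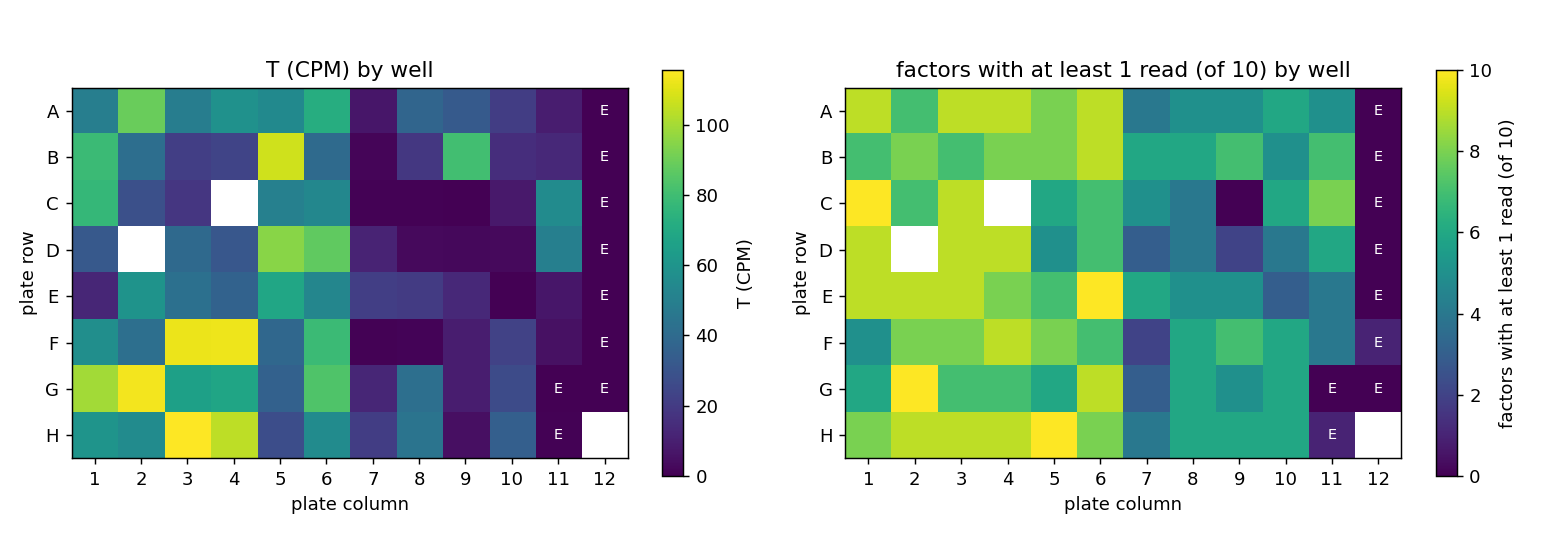
CPM of T (left) and number of the 10 factors with at least 1 read (right) in each well of the plate, with embryo wells marked E and empty positions white. T is high across columns 1 to 6 (spheroid RFP), with column medians of 45.9 to 63.7 CPM, and lower in the spheroid GFP columns.

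By plate column, the median of T was 45.9 to 63.7 CPM in the 6 columns of spheroid RFP and 9.18 to 19.6 CPM in the 5 columns of spheroid GFP, so the ranges of column medians did not overlap. How many other genes had such a gap was not tested, and 77.9% of 9940 genes were called between these populations (edgeR). Within GFP, well E10 had no T read among 1980027, and well B9 had 80.4 CPM. Paired wells of columns 3 and 4 had like levels of T, as in row F (112 and 113 CPM) and row D (39.6 and 31.6 CPM).

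Levels of the factors were weakly correlated with each other among wells. The median Spearman's rho over 45 pairs of factors was 0.12 in spheroid RFP (n = 46 wells) and 0.05 in spheroid GFP (n = 38), with 3 pairs beyond 0.4 in size in each. In RFP these were Evx1 with Cdx2 (0.50), Eomes with Mesp1 (0.42) and Tbx6 with Msgn1 (0.41). In GFP they were Eomes with Tbx6 (-0.46), T with Mixl1 (0.45) and T with Mesp1 (0.41). At 400000 reads a library, Evx1 with Cdx2 was at 0.28 and Tbx6 with Msgn1 at 0.29, while Eomes with Mesp1 was at 0.41. These are descriptions of sparse counts across wells that share a plate and, in part, paired wells.

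**Figure D4:**
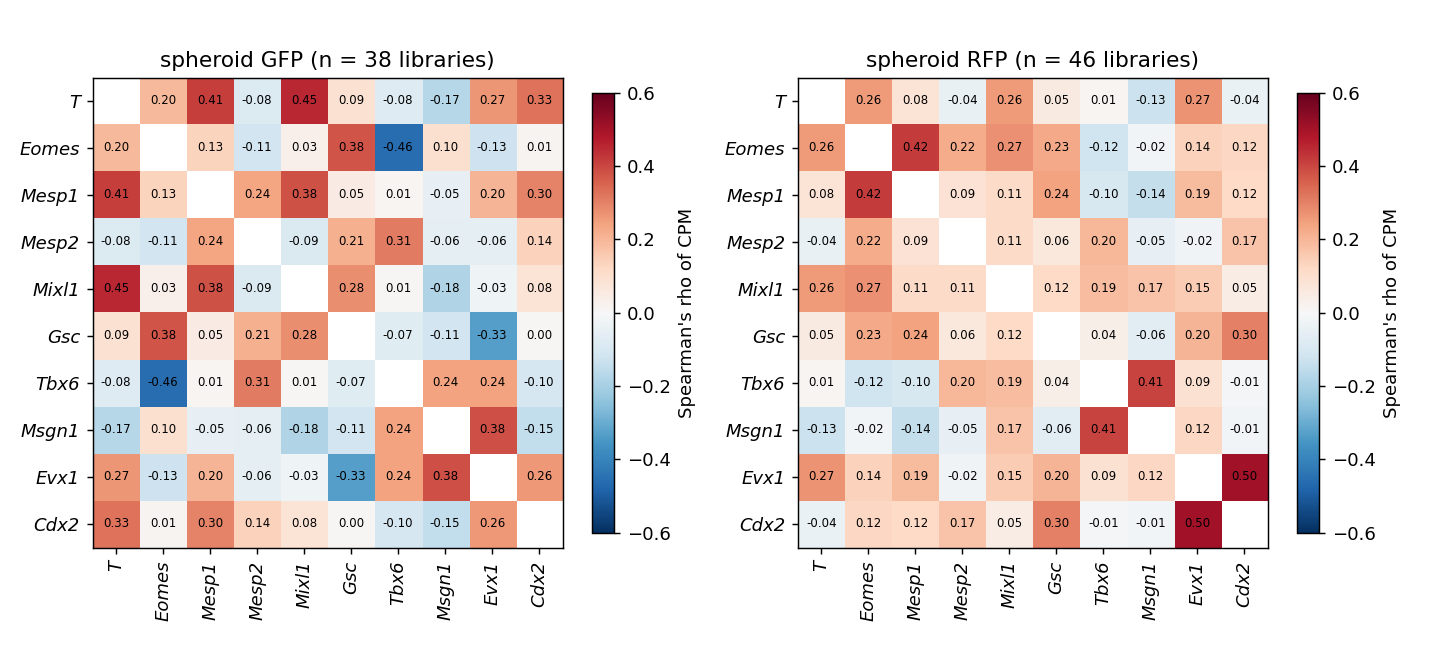
Spearman's rho of CPM between each pair of factors over the wells of spheroid GFP (left, n = 38) and spheroid RFP (right, n = 46). Most values lie near 0, and Evx1 with Cdx2 reaches 0.50 in RFP.

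Genes whose CPM followed a factor most closely over the 46 RFP wells were sought among 12472 genes with reads in at least 23 of them. T was followed by Igsf1, Nme5, Chrd, Met and Moxd1 (rho 0.59 to 0.54), Eomes by Lhx1, Tdgf1, Nckipsd, Larp1 and Eef1akmt1 (0.68 to 0.54), and Tbx6 by Pik3c2b, Dll1, 2610528A11Rik, Pea15a and Ypel3 (0.62 to 0.55). Msgn1 was followed by Cited1, 2610528A11Rik, Thumpd2, Ap5m1 and Crabp2 (0.61 to 0.54), Evx1 by Nkx1-2, Mrpl42, B3galt6, Tubb4a and D230030E09Rik (0.60 to 0.54), and Cdx2 by Ybx3, Hoxb5os, Hoxaas3, Dnajc19 and Mira (0.57 to 0.56). Mesp1 was followed by Timmdc1, Aldh2, Gstt3, Fndc3b and Pip5k1a (0.58 to 0.51), Mesp2 by A330023F24Rik, Bag3, Rhod, Trp53 and Wdr91 (0.55 to 0.50), and Mixl1 by Larp7, Dnajc3, Epb41l4aos, Psat1 and Timm50 (0.61 to 0.52). Over the 38 GFP wells, among 13385 genes, the first gene was Pdlim5 for T (0.61), Snord19 for Eomes (0.59), Zfp619 for Mesp2 (0.54), Zfp979 for Mixl1 (0.62) and Camk1g for Tbx6 (0.59). Each is the highest of all the genes searched, so its size is no sign of a relation.

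Set against the embryo, most of the factors were higher in the spheroids, in comparisons where source, stage and plate position cannot be told apart. For spheroid GFP against embryo GFP, 4 factors passed the filter and all 4 were called higher by edgeR (T, Eomes, Mesp2 and Mixl1), where 68.0% of 11822 genes were called and 48.3% were called higher in spheroids; without the filter 8 were called, where 55.8% of 21087 genes were called and 42.1% higher. Against the floor of 3 reads, mean CPM in spheroid GFP was at least 41.8-fold higher for T, 11.4-fold for Mesp2, 8.29-fold for Eomes, 4.55-fold for Mixl1, 4.14-fold for Tbx6, 3.22-fold for Evx1, 1.38-fold for Cdx2 and 1.25-fold for Mesp1. For Gsc and Msgn1 the spheroid GFP mean itself was under the floor. For spheroid RFP against embryo RFP, 7 factors passed the filter and were called higher (T, Eomes, Mesp1, Mixl1, Tbx6, Msgn1 and Evx1), where 42.6% of 11147 genes were called and 22.5% were called higher; without the filter 9 were called, where 25.8% of 20426 genes were called and 12.6% higher. A factor that is 0 in the embryo could pass the filter only through the spheroid libraries. Mean CPM in spheroid RFP was at least 21.2-fold higher than the floor for Tbx6, 16.98-fold for Eomes, 9.66-fold for Msgn1, 6.99-fold for Mesp1, 6.52-fold for Evx1, 5.04-fold for Mesp2, 3.77-fold for Cdx2 and 1.24-fold for Gsc. T was 315-fold higher by the ratio of summed reads (95% interval 56.4 to 12426, from 1 embryo read) and Mixl1 22.2-fold (6.11 to 183, from 2 embryo reads). Exact permutation tests gave the smallest p for T and Tbx6 in RFP (4.3e-06 each) and for T in GFP (2.2e-05). In GFP, p was 0.291 for Mesp1, 0.112 for Mixl1, 0.685 for Gsc, 0.905 for Msgn1, 0.139 for Evx1 and 0.497 for Cdx2, and in RFP 0.293 for Gsc.

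**Figure D5:**
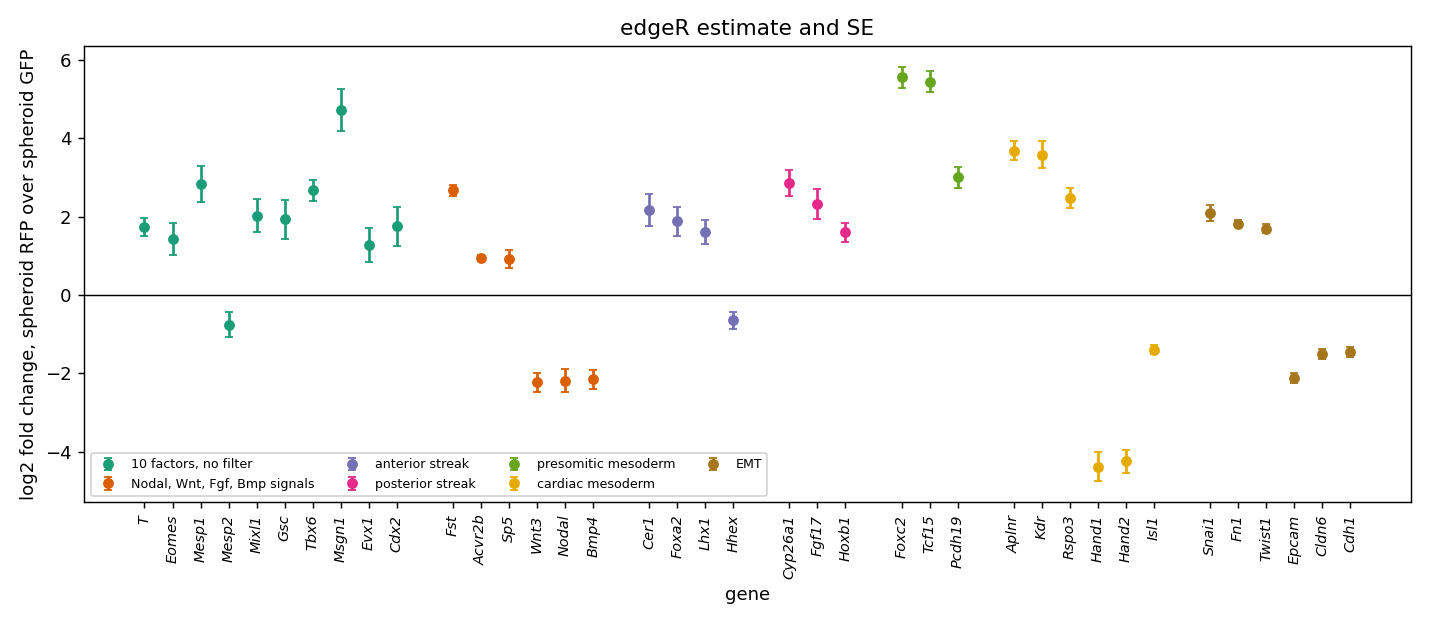
edgeR log2 fold change of spheroid RFP over spheroid GFP with its SE, for the 10 factors (fitted without the filter) and for the genes named from each related list. Mesp2 is the factor below 0, at -0.76.

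Related genes were described by lists chosen with earlier results of these data known. Each count below is read against all 9940 genes tested, of which 37.8% were called higher and 40.1% lower in spheroid RFP. Among 11 measured of 18 presomitic mesoderm genes, all 11 rose in spheroid RFP: Foxc2, a forkhead factor of paraxial mesoderm, by 5.56 (SE 0.27), Tcf15, a somite bHLH factor, by 5.44 (SE 0.27), and Pcdh19, a protocadherin, by 3.00 (SE 0.28). The list's median was 2.22 against -0.02 over all genes tested. Foxc2 and Tcf15 also had reads in 4 and 3 of the 4 embryo RFP libraries, at 19.7 ± 8.35 and 2.33 ± 2.89 CPM (SD, n = 4). Of 8 measured posterior streak and tailbud genes, 7 rose and 0 fell (37.8% and 40.1% over all genes), led by Cyp26a1, which degrades retinoic acid (2.85), Fgf17 (2.33) and Hoxb1 (1.60). Of 7 anterior streak, endoderm and node genes, 5 rose, with the Nodal and Bmp inhibitor Cer1 (2.17), Foxa2 (1.88) and Lhx1 (1.61) first, and Hhex fell by 0.65. Foxa2, Cer1 and Lhx1 also act in endoderm, and of 5 measured of 10 endoderm markers 3 rose and 2 fell, Krt8 and Epcam, which are also epithelial genes. The summed CPM of the 10 went the other way, from a median of 1056 in spheroid GFP (573 to 2600) to 364 in spheroid RFP (88.0 to 1054), and its part in the differences was not tested.

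Of 11 measured signals that act on the streak, 5 rose and 3 fell, a split near that over all genes (37.8% higher, 40.1% lower). Those that rose were led by the Activin antagonist Fst (2.67), the receptor Acvr2b (0.95) and the Wnt target Sp5 (0.93). Wnt3 fell by 2.23, Nodal by 2.19 and Bmp4 by 2.15. Wnt3 averaged 25.9 CPM in spheroid GFP and 5.38 in spheroid RFP, Nodal was detected in 36 of 38 and 32 of 46 libraries, and neither had a read in any embryo library. Of 15 genes of the epithelial to mesenchymal transition, 10 rose (against 37.8% of all genes), with Snai1 (2.10), Fn1 (1.82) and Twist1 (1.69), and 5 fell (against 40.1%), with Epcam by 2.13, Cdh1 by 1.46 and Cldn6 from a mean of 161 to 58.0 CPM. Of 13 cardiac mesoderm genes, 7 rose, with Aplnr (3.69), Kdr (3.58) and Rspo3 (2.48), and 5 fell, with Hand1 by 4.39, Hand2 by 4.24 and Isl1 by 1.40, counts set against 37.8% and 40.1% over all genes. All genes named from these lists had adjusted p between 2.0e-36 and 0.0059 (edgeR).

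Apart from Mesp2, which also fell in spheroid RFP, the factors moved opposite to the called markers of undifferentiated stem cells. Of 7 measured of 11, 5 fell in spheroid RFP and 0 rose, against 40.1% and 37.8% of all genes, and their summed CPM was 89.1 to 1708 in spheroid GFP (median 269) and 12.2 to 608 in spheroid RFP (median 55.6). In embryo GFP 7 of the 11 were at 0, Pou5f1 among them. The sum there, 0 to 513 CPM, came from Nanog, Klf2, Tdgf1 and Tbx3, of which Nanog reached at most 0.433 CPM. Dppa5a, a stem cell gene, was at a median of 50.4 CPM in spheroid GFP and 0 in spheroid RFP. Their part in the differences of the 10 factors was not tested.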

How the data were processed

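Reads of 93 libraries were trimmed with Trimmomatic 0.36, aligned with HISAT2 2.0.4 to mm10 and counted per gene with featureCounts 1.5.2, per the submitters' processing notes. The values used are the raw counts per gene as deposited by the authors, 1 column per library, with no normalization and no molecular identifiers, so that amplification duplicates are counted. The gene annotation and strand setting are not given in the sources used here. All 93 columns were matched to samples by their labels, and groups came from the sample labels.

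CPM used the total count times a TMM factor computed over all libraries. Comparisons used edgeR 4.0.16 (quasi-likelihood, TMM, filterByExpr with a minimum count of 10, Benjamini-Hochberg adjustment over all genes, threshold 0.1) in R 4.3.3, with DESeq2 1.42.0 as an alternative, and Fisher's exact test of detection. For 1 gene at a time, log2 CPM (prior count 2) was compared by a two-sided permutation test, exact where a group had under 10 libraries. Scripts were tested on simulated data. Alternatives were other scaling, no filter, a threshold of 0.05, a prior count of 0.5, leaving out libraries, summing paired wells and thinning. All 10 factors were named in each comparison; from each related list, up to 3 genes per direction with the largest called change between spheroid populations; and, per factor, up to 5 genes with rho over 0.5. Over GFP wells only the first of these is printed. The factors and lists were chosen with earlier results of these data known. Positions are from GENCODE M21 (GRCm38).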

Additional observations from a re-analysis of the deposited data

Results flagged for a closer look

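In embryo RFP, 1 library stood apart for T, at 0.716 CPM against 0 in the other 3, and 1 for Mixl1, at 1.46 CPM against 0 in the other 3. The values rest on 1 and 2 reads. Chance sets apart about 1 in 20 such groups, and a group with a single library above 0 is always set apart.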

How the results depend on the processing

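The number of factors called between the spheroid populations was 2, where 77.9% of all genes tested were called. It became 10 without the filter on low counts (60.1% of genes) and 10 with DESeq2 (10737 of 16322 genes), which test the low factors too. With the paired wells of columns 3 and 4 summed it was 1 (7582 of 9860 genes). For spheroid GFP against embryo GFP it was 4 (68.0% of genes) and became 8 without the filter (55.8%). No result changed direction. Leaving out 1 embryo library at a time moved the exact permutation p of Eomes in GFP from 0.0426 to between 0.0722 and 0.0728, and of Cdx2 in RFP from 0.0237 to about 0.0581; fewer splits are then possible. Other counts of called factors stayed within 1.5 times. At the lowest levels a factor can be missed: Msgn1, Gsc, Cdx2, Mesp1 and Evx1 were at 0 in most spheroid GFP libraries. They had a read in 3, 5, 8, 12 and 17 of 38. With libraries thinned to 400000 reads, they had a read in 2, 1, 3, 5 and 14 of 37. In spheroid RFP the thinned counts were 29, 7, 22, 32 and 27 of 46. Whether deeper sequencing would fill these zeros was not tested. No paired analysis was possible because the replicate numbers only follow the listing order and tie no wells across groups.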
